A study of Mus musculus with 6 samples.

Results

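Genes of enteric neurons and glia were examined in bulk RNA-Seq of distal colon from DSS-treated Gm31629-/- mice and WT mice. The list held 45 genes, chosen by symbol for their known use as pan-neuronal, transmitter-class, neurotrophic or glial genes, and all 45 had a row among the 27546 genes of the deposited table. Both groups were C57BL/6 mice by the labels (C57BL/6J by the methods), 8 weeks of age, and the WT mice were littermates of the Gm31629-/- mice. All animals drank water with 3% DSS (dextran sulfate sodium, which damages the lining of the colon) until day 7, and tissue was collected on day 8, with 3 libraries per genotype and no untreated group. Gm31629-/- is a whole-body deletion of a long noncoding RNA gene, not one restricted to neurons or to the epithelium. The methods describe RNA pooled from 3 mice of each genotype, whereas the table holds 1 column per library, and each library was taken here as 1 mouse.

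The enteric nervous system lies within the gut wall. Its neurons and glia descend from neural crest cells that enter the gut and form ganglia between the muscle layers and in the submucosa, and their fibers run through the muscle and the mucosa. Excitatory motor neurons use acetylcholine and tachykinins, inhibitory motor neurons use nitric oxide and vasoactive intestinal peptide, and sympathetic fibers that enter from outside bring noradrenaline. In bulk tissue, fewer neurons and less RNA per neuron cannot be told apart.

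The libraries were of like depth, with 18006000 to 18795100 mapped fragments as recovered from the size of 1 fragment in the FPKM values (fragments scaled to gene length and to the mapped fragments of the library). Sex-linked genes divided the libraries. The library of Gm31629-/- mouse 1 held the Y-linked transcript Ddx3y at 9.27 FPKM and Xist at 0.00606 FPKM, while the other 5 libraries held Ddx3y at 0 and Xist at 8.35 to 13.8 FPKM. The methods state that male mice were used, which the library of mouse 1 matched and the other 5 did not. No listed gene had the symbol Gm31629, so the genotype labels were not checked against it. Genes were compared with limma on log2(FPKM + 1), and a gene was called at an adjusted p under 0.05 with a log2 fold change above 1 or below −1. Of the 14657 genes with a mean of at least 0.5 FPKM, 2704 were called higher in Gm31629-/- mice, which is 18.4%, and 680 were called lower, which is 4.64%. Higher genes made up 79.9% of calls as deposited and 64.7% after each library was rescaled by its median ratio, with 2232 higher and 1217 lower. This rescaling moved the median log2 fold change of all tested genes from 0.15 to −0.06.

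WT libraries held almost no RNA of enteric neurons, and Gm31629-/- libraries held it in all 3 mice. The 17 neuronal members (the Hu proteins, cytoskeletal genes and synaptic genes) summed to 1.27, 1.87 and 1.66 FPKM in WT mice 1 to 3 and to 157, 211 and 55.7 FPKM in Gm31629-/- mice 1 to 3. For 42 of the 45 genes, every Gm31629-/- value was above every WT value, which held for 31.0% of all listed genes and 36.3% of those tested, and for 0 of the 45 every value was below, which held for 21.5% of those tested. The exceptions were Ddc, Calb1 and Entpd2. A total of 39 members passed the filter on mean FPKM, but only 6 of them (Ret, Nrtn, Ache, Tac1, Ddc and Entpd2) reached a mean of 0.5 FPKM in the WT mice. The other 33 passed only through the Gm31629-/- group, where they were high, so the counts and median that follow describe the members and are no test of the list. Of the 39, 33 were called higher, 0 were called lower and 6 were not called. Over all tested genes, 18.4% were called higher and 23.1% were called in either direction. Without Gm31629-/- mouse 1, whose sex-linked genes differed from the other libraries, 38 members were tested and 32 were called higher. Over all genes in that fit, 2690 of 14361 were called higher. Entpd2, with the lowest log2 fold change of the 39, had an unadjusted limma p of 0.290, and voom also called 0 members lower. The median log2 fold change over these 39 was 2.18 on the log2(FPKM + 1) scale, against 0.15 over all tested genes. It was 2.53 when members listed at 0 in all WT mice were set to the smallest fold that 3 fragments per WT library allow. That smallest fold has no pseudocount while the other members kept theirs, so the 2.53 mixes scales and is not comparable with the 2.18. Without a filter, 32 of the 45 were called higher, beside 9.21% of 27546 genes.

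**Figure D1:**
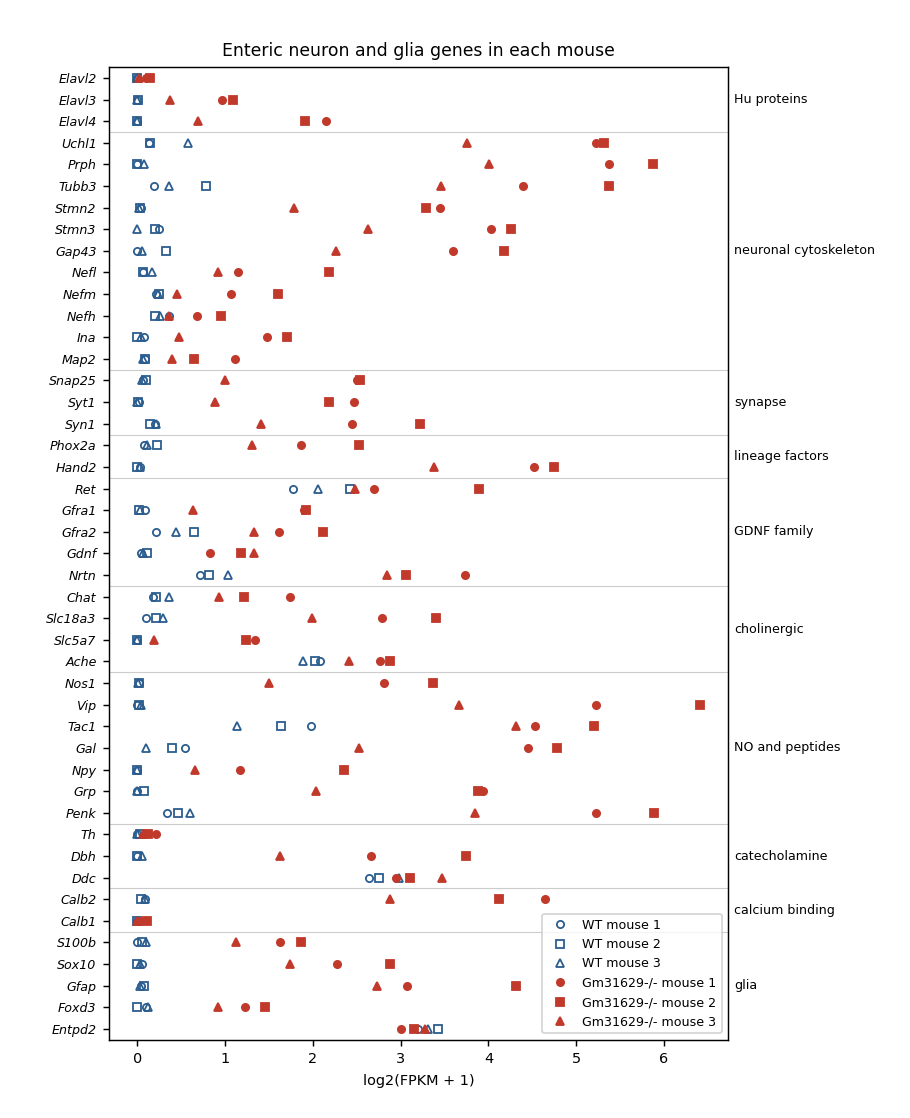
Level of each of the 45 members in each mouse as log2(FPKM + 1), grouped by role, with open blue symbols for WT mice and filled red symbols for Gm31629-/- mice. WT symbols sit near 0 for most members, and the groups overlap for Ddc, Calb1 and Entpd2.

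The 3 neuronal Hu genes encode RNA-binding proteins that are used to mark enteric neuron cell bodies. Elavl4 (ENSMUSG00000028546, chromosome 4, 110203722 to 110351909 of GRCm38, HuD) had 3.44, 2.75 and 0.616 FPKM in Gm31629-/- mice 1 to 3 and was listed at 0 in all WT mice. The groups were separate, and mouse 3 was the lowest of its group. The Gm31629-/- mean was at least 73.3-fold higher than the WT level that 3 fragments in a library would give, and the limma adjusted p was 0.0122. Elavl3 (HuC) and Elavl2 (HuB) were below the filter. Elavl3 had 0.946, 1.13 and 0.292 FPKM in Gm31629-/- mice and 1 fragment in the 3 WT libraries together, and Elavl2 had 0.0719, 0.104 and 0.0131 FPKM against 0 in WT mice. In each Gm31629-/- mouse the order per length was therefore Elavl4, then Elavl3, then Elavl2.

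Genes of the neuronal cytoskeleton and axon were among the most abundant members. Of 11 genes, 8 were called higher, Nefm was not called, and Nefh and Map2 were below the filter. Prph (ENSMUSG00000023484, chromosome 15, 99055174 to 99058978) encodes peripherin, an intermediate filament of peripheral neurons. It had 40.6, 57.8 and 15.1 FPKM in Gm31629-/- mice 1 to 3 and 0, 0 and 0.0571 FPKM in WT mice (log2 fold change 5.06 ± 0.44 SE, limma adjusted p = 0.000387). Uchl1 (ENSMUSG00000029223, chromosome 5), the neuronal deubiquitinase PGP9.5, had 36.4, 38.8 and 12.5 FPKM against 0.0994, 0.102 and 0.489 FPKM (log2 fold change 4.48 ± 0.42 SE, limma adjusted p = 0.000485). Tubb3 (ENSMUSG00000062380, chromosome 8), the neuronal beta tubulin, had 20.1, 40.6 and 10.0 FPKM against 0.145, 0.714 and 0.285 FPKM (log2 fold change 3.97 ± 0.45 SE, limma adjusted p = 0.000927). In all 3 genes the groups were far apart, mouse 2 was the highest and mouse 3 the lowest of the Gm31629-/- mice. The growth cone protein gene Gap43 and the stathmin genes Stmn3 and Stmn2, which encode regulators of microtubules, rose by 3.22, 3.49 and 2.81 on the log2(FPKM + 1) scale. Their Gm31629-/- means were 110, 115 and 363 times the WT means.

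Neurofilament genes, which belong to large axons, were lower in level than Prph. The light chain gene Nefl and the internexin gene Ina rose by 1.31 and 1.18 on the log2(FPKM + 1) scale (limma adjusted p = 0.0155 and 0.0209). Their ratios of means were 25.3 and 53.3. Nefl was not called without WT mouse 1 or WT mouse 3 (adjusted p = 0.0519 and 0.0522 by limma), and Ina was not called without any one of the WT mice (0.0597 to 0.0691). The medium chain gene Nefm had 1.10, 2.03 and 0.367 FPKM against 0.159, 0.182 and 0.175 FPKM, with a log2 fold change of 0.81 (limma adjusted p = 0.0516). It was called without Gm31629-/- mouse 3 (log2 fold change 1.11, limma adjusted p = 0.00760). Nefl and Nefm overlap by 1108 exon bases on opposite strands, so reads there could not be assigned without strand. The heavy chain gene Nefh had 0.599, 0.936 and 0.286 FPKM in Gm31629-/- mice and 0.284, 0.153 and 0.200 FPKM in WT mice, and the dendritic protein gene Map2 had 1.16, 0.567 and 0.314 FPKM against 0.0485 to 0.0608 FPKM.

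The 3 synaptic genes rose together. Syn1 (ENSMUSG00000037217, X chromosome), which encodes the vesicle protein synapsin I, had 4.46, 8.34 and 1.65 FPKM in Gm31629-/- mice and 0.147, 0.101 and 0.161 FPKM in WT mice (log2 fold change 2.18 ± 0.42 SE, limma adjusted p = 0.00625). Snap25, a SNARE gene of transmitter release, had 4.68, 4.80 and 0.994 FPKM against 0.0478, 0.0736 and 0.0392 FPKM (log2 fold change 1.94 ± 0.40 SE, limma adjusted p = 0.00851). Syt1, whose product senses calcium at the vesicle, had 4.54, 3.54 and 0.842 FPKM against 0.0130, 0.00666 and 0 FPKM (log2 fold change 1.84 ± 0.39 SE, limma adjusted p = 0.00914). Mouse 3 had 0.209 times the summed synaptic level of mouse 2 and 0.255 times that of mouse 1.

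Both lineage factors were called higher. Hand2 (ENSMUSG00000038193, chromosome 8), a bHLH factor of enteric neurons that mesenchymal cells also use, had 22.0, 25.8 and 9.42 FPKM in Gm31629-/- mice and 0.0230, 0 and 0.0226 FPKM in WT mice (log2 fold change 4.19 ± 0.34 SE, limma adjusted p = 0.000336). Phox2a, a homeodomain factor of autonomic neurons, had 2.64, 4.74 and 1.47 FPKM against 0.0531, 0.164 and 0.0784 FPKM (log2 fold change 1.76 ± 0.30 SE, limma adjusted p = 0.00385). Hand2 shares 461 exon bases with the opposite-strand gene Hand2os1.

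**Figure D2:**
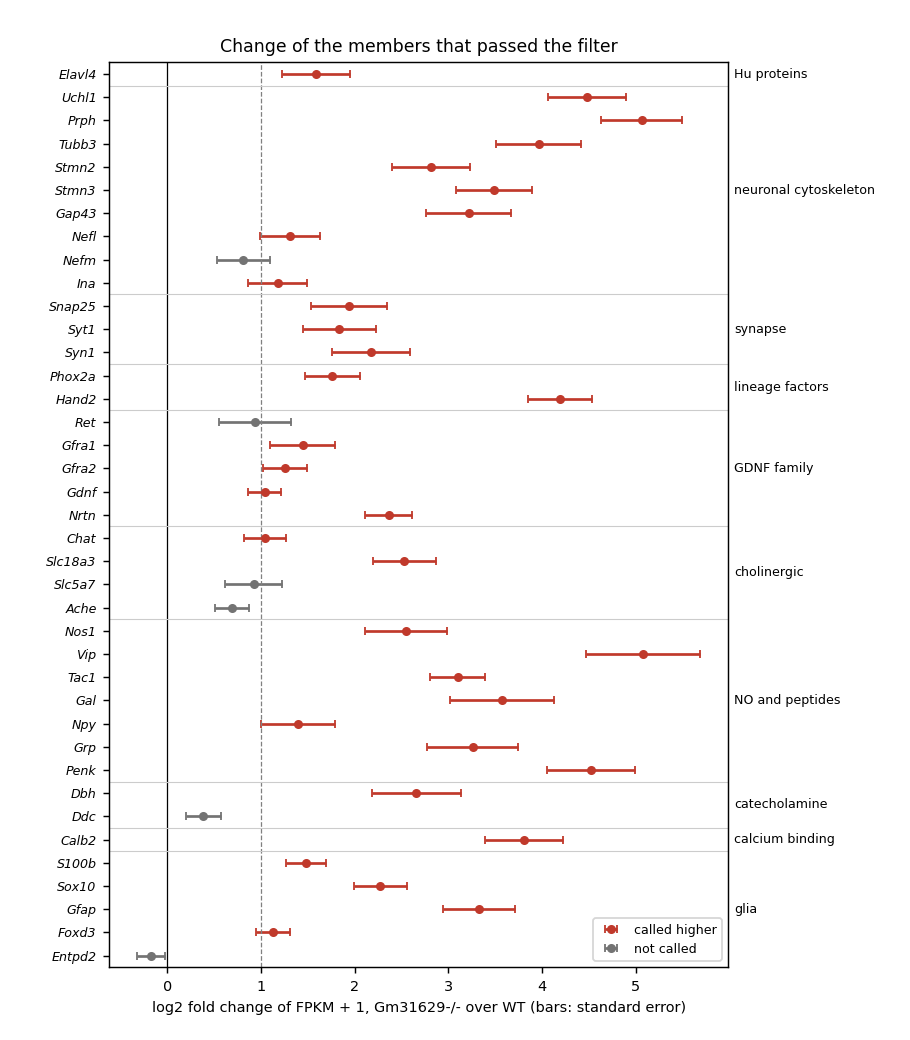
Log2 fold change of FPKM + 1 in Gm31629-/- over WT mice for the 39 members that passed the filter, with bars for the standard error from limma, n = 3 per group. The dashed line marks a change of 1, and 33 members are called higher (red) and 6 are not called (grey).

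GDNF and neurturin are made by the gut wall and signal to enteric neurons and their precursors through the coreceptors Gfra1 and Gfra2 and the receptor kinase Ret. Both ligands and both coreceptors were called higher, and Ret was not. Nrtn (neurturin, ENSMUSG00000039481, chromosome 17) had 12.3, 7.36 and 6.17 FPKM in Gm31629-/- mice 1 to 3 and 0.634, 0.760 and 1.04 FPKM in WT mice (log2 fold change 2.36 ± 0.25 SE, limma adjusted p = 0.000760). It was one of the members with a measurable WT level, and its Gm31629-/- mean was 10.6 times the WT mean. Gdnf had 0.774, 1.27 and 1.505 FPKM against 0.0308, 0.0791 and 0.0455 FPKM (log2 fold change 1.04 ± 0.17 SE, limma adjusted p = 0.00368), and after rescaling by the median ratio its log2 fold change was 0.96 and it was no longer called. Mouse 3 held the most Gdnf of the Gm31629-/- mice, whereas it was the lowest in 42 of the 45 members.

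Of the coreceptors, Gfra1 had 2.73, 2.79 and 0.557 FPKM against 0.0592, 0.0101 and 0.0194 FPKM, and its log2 fold change was 1.44 (limma adjusted p = 0.0141, and 0.0529 without WT mouse 3). Gfra2 had 2.06, 3.33 and 1.51 FPKM against 0.156, 0.561 and 0.353 FPKM (log2 fold change 1.26 ± 0.24 SE, limma adjusted p = 0.00609). Ret (ENSMUSG00000030110, chromosome 6, 118151745 to 118197718) was present in both groups. It had 5.50, 13.8 and 4.58 FPKM in Gm31629-/- mice and 2.42, 4.37 and 3.17 FPKM in WT mice (log2 fold change 0.94 ± 0.38 SE, limma adjusted p = 0.0831). The groups did not overlap, but the lowest Gm31629-/- mouse and the highest WT mouse were close.

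Cholinergic genes differed in how far the WT mice fell short. Slc18a3 (ENSMUSG00000100241, chromosome 14), which encodes the vesicular acetylcholine transporter, had 5.92, 9.59 and 2.98 FPKM in Gm31629-/- mice and 0.0672, 0.161 and 0.220 FPKM in WT mice (log2 fold change 2.53 ± 0.34 SE, limma adjusted p = 0.00163). Chat, the acetylcholine-synthesizing enzyme gene in whose interval Slc18a3 lies, had 2.34, 1.33 and 0.910 FPKM against 0.135, 0.158 and 0.284 FPKM (log2 fold change 1.05 ± 0.23 SE, limma adjusted p = 0.00968). The Chat change was 0.94 after median-ratio rescaling and 0.83 without Gm31629-/- mouse 1, under the threshold of 1 in both. Slc5a7, the gene of the choline transporter that feeds this synthesis, had 1.53, 1.36 and 0.137 FPKM and was listed at 0 in all WT mice (log2 fold change 0.92 ± 0.31 SE, limma adjusted p = 0.0446). It was not called, but it was called without Gm31629-/- mouse 3 (log2 fold change 1.29, limma adjusted p = 0.00124). Ache, the gene of the enzyme that breaks acetylcholine down and which is not limited to neurons, had 5.82, 6.38 and 4.32 FPKM against 3.24, 3.05 and 2.70 FPKM (log2 fold change 0.69 ± 0.18 SE, limma adjusted p = 0.0188), also short of the fold-change threshold.

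All 7 genes of the nitrergic and peptidergic group were called higher. Vip (ENSMUSG00000019772, chromosome 10, 5639218 to 5647617), the vasoactive intestinal peptide gene of inhibitory and secretomotor neurons, had the highest mean level of the 45 members in Gm31629-/- mice. It had 36.5, 83.9 and 11.7 FPKM in mice 1 to 3 and 0, 0.0163 and 0.0313 FPKM in WT mice (log2 fold change 5.08 ± 0.61 SE, limma adjusted p = 0.00110). The WT values stand for 0, 1 and 2 fragments, against 2282, 5268 and 730 in the Gm31629-/- libraries. Penk (proenkephalin, an opioid peptide precursor) had 36.4, 58.0 and 13.4 FPKM against 0.265, 0.374 and 0.521 FPKM (log2 fold change 4.52 ± 0.47 SE, limma adjusted p = 0.000663). Gal (galanin) had 20.8, 26.6 and 4.74 FPKM against 0.456, 0.312 and 0.0747 FPKM (log2 fold change 3.57 ± 0.55 SE, limma adjusted p = 0.00275).

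Nos1, the neuronal nitric oxide synthase gene, had 6.02, 9.32 and 1.84 FPKM in Gm31629-/- mice and 0.00970, 0.0149 and 0.00477 FPKM in WT mice, and rose by 2.55 on the log2 scale (limma adjusted p = 0.00403). Tac1, the precursor gene of substance P, was the peptide gene with the highest WT level. It had 22.1, 35.7 and 18.9 FPKM against 2.93, 2.11 and 1.21 FPKM (log2 fold change 3.10 ± 0.30 SE, limma adjusted p = 0.000530), a ratio of means of 12.3. Grp (gastrin-releasing peptide) rose by 3.26 on the log2(FPKM + 1) scale, with a ratio of means of 594. Npy (neuropeptide Y) had 1.25, 4.12 and 0.577 FPKM and was listed at 0 in WT mice. Its limma adjusted p was 0.0270, and it was not called without any one of the WT mice (0.0705 to 0.0829) or without a filter (0.0559).

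The sequences just upstream of the annotated starts of Vip and Prph are shown because these 2 members had the largest log2 fold changes. Each run is the 250 bases before the start, 5′ to 3′ on the plus strand of GRCm38.p6, credited to RefSeq, at chr10:5638968-5639217 for Vip and chr15:99054924-99055173 for Prph, and neither holds an annotated exon. Capitals mark matches to TATAAA (the TATA box, gene strand) and to CGTCA on either strand (the core of the cAMP response element).
Vip: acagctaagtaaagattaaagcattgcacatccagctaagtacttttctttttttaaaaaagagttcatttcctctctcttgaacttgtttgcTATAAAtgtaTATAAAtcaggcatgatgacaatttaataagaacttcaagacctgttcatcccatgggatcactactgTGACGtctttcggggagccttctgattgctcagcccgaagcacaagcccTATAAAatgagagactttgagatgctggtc
Prph: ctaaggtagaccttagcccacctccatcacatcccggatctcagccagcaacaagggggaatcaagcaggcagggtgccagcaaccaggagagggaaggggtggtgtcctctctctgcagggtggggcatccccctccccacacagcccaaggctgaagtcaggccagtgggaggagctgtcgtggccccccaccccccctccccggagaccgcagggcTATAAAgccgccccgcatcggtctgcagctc
Vip held 3 matches to TATAAA, with first bases 157, 147 and 30 bases before the start, and 1 match to CGTCA on the minus strand, 79 bases before it. Prph held 1 match to TATAAA, 31 bases before the start. Of the 32 members with a window in the table, 12 held CGTCA and 5 held TATAAA, which is 37.5% and 15.6%, against 19.8% and 8.94% of 27025 genes. TAATTA, a homeodomain site, was searched on both strands and lay in the windows of Elavl4, Hand2 and Tac1, where 5.65% of genes held it. These are matches of letters and not tests of binding.

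Catecholamine genes did not move as a group. Dbh (ENSMUSG00000000889, chromosome 2), which encodes the enzyme that makes noradrenaline from dopamine, had 5.35, 12.4 and 2.08 FPKM in Gm31629-/- mice and 0, 0 and 0.0395 FPKM in WT mice (log2 fold change 2.66 ± 0.48 SE, limma adjusted p = 0.00490). Th, the gene of the first enzyme of the same pathway, was nearly absent from every library. It had 0.161, 0.0917 and 0.0461 FPKM in Gm31629-/- mice, so that Dbh exceeded Th by 33.2, 135 and 45.2 times per length, and 1 fragment in the WT libraries together. Ddc, the gene of the intermediate decarboxylase, had 6.71, 7.63 and 10.1 FPKM against 5.22, 5.74 and 6.87 FPKM (log2 fold change 0.39 ± 0.19 SE, limma adjusted p = 0.136), with overlapping groups and its highest value in mouse 3. The order in Gm31629-/- mice 1 and 3 was Ddc, Dbh, Th, and in mouse 2 it was Dbh, Ddc, Th.

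The 2 calcium-binding genes that mark neuron classes were far apart in level. Calb2 (calretinin, ENSMUSG00000003657, chromosome 8) had 24.0, 16.3 and 6.37 FPKM in Gm31629-/- mice and 0.0620, 0.0319 and 0.0611 FPKM in WT mice (log2 fold change 3.81 ± 0.41 SE, limma adjusted p = 0.000782). Calb1 (calbindin) had 0.0224, 0.0783 and 0 FPKM in Gm31629-/- mice and was listed at 0 in WT mice, which is too few fragments to compare.

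Glial genes followed the neuronal ones apart from Entpd2. Gfap (ENSMUSG00000020932, chromosome 11, 102887336 to 102900912), the glial intermediate filament gene, had 7.43, 18.9 and 5.63 FPKM in Gm31629-/- mice and 0.0256, 0.0527 and 0.0252 FPKM in WT mice (log2 fold change 3.32 ± 0.39 SE, limma adjusted p = 0.000978). Sox10, the factor that specifies glia from neural crest, had 3.85, 6.37 and 2.35 FPKM against 0.0399, 0 and 0.0196 FPKM (log2 fold change 2.27 ± 0.28 SE, limma adjusted p = 0.00125). S100b, which encodes a calcium-binding glial protein, had 2.09, 2.63 and 1.17 FPKM against 0, 0.0374 and 0.0717 FPKM (log2 fold change 1.48 ± 0.21 SE, limma adjusted p = 0.00208). In these 3 genes the groups were separate and mouse 2 was the highest. Foxd3, another neural crest factor, rose by 1.13 on the log2(FPKM + 1) scale, with a ratio of means of 24.6. Entpd2, the ectonucleotidase gene of enteric glia, had 7.00, 7.89 and 8.72 FPKM in Gm31629-/- mice and 8.21, 9.76 and 8.95 FPKM in WT mice (log2 fold change −0.17 ± 0.15 SE, limma adjusted p = 0.383), and shares 612 exon bases with Npdc1 on the same strand. It was the only member tested with a negative log2 fold change, and the groups overlapped. Sox10 and S100b were at 0 to 0.0717 FPKM in the same WT libraries. Which cells held the Entpd2 RNA there was not tested.

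Within the Gm31629-/- group the mice differed in the amount of nervous tissue RNA. Mouse 3 was the lowest in 42 of 45 members and mouse 2 the highest in 32, and the highest mouse exceeded the lowest by a median of 3.79-fold over the 44 members above 0 in all 3 mice. Divided by Prph of the same mouse, the median fell to 1.79-fold, and 14 of the 44, Prph itself included, varied by less than 1.5-fold. Penk was the steadiest of the others, at 89.7%, 100.5% and 88.6% of Prph in mice 1 to 3, and Gap43 was at 27.3%, 29.6% and 25.1%. The 5 members that varied by over 3-fold relative to Prph were Gdnf (1.91%, 2.19% and 9.95%), Nrtn (30.4%, 12.7% and 40.8%), Slc5a7 (3.78%, 2.36% and 0.904%), Ddc (16.5%, 13.2% and 66.6%) and Entpd2 (17.3%, 13.7% and 57.7%). Relative to Prph, Slc5a7 was lowest in mouse 3 and the other 4 were highest there. Prph was chosen as the reference after its values were seen.

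**Figure D3:**
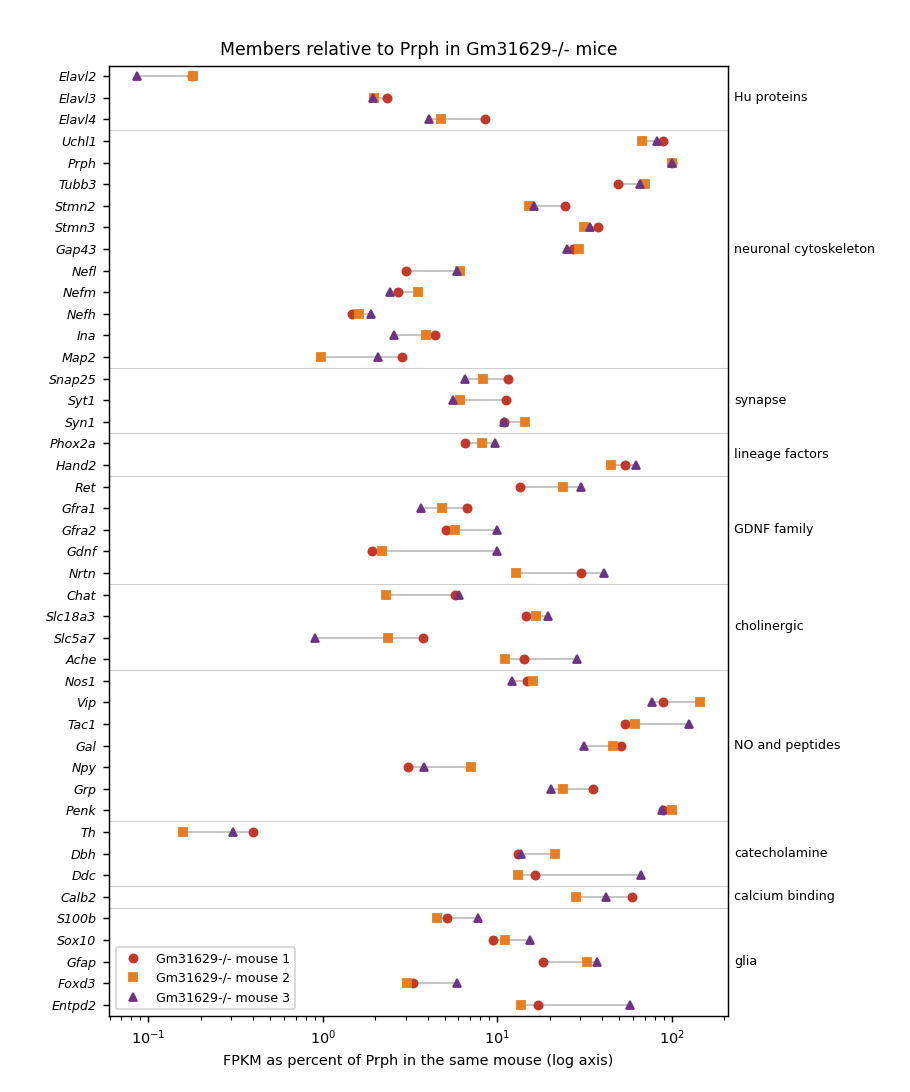
FPKM of each member as a percent of Prph in the same Gm31629-/- mouse, on a log axis, for the 44 members above 0 in all 3 mice, with a grey line from the lowest to the highest mouse. Penk, Gap43 and Stmn3 lie within narrow ranges, while Gdnf, Ddc and Entpd2 are higher in mouse 3.

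Ratios between neuron classes were compared within a library. The ratio of Chat to Nos1, an enzyme gene of excitatory and one of inhibitory neurons, was 0.389, 0.143 and 0.496 in Gm31629-/- mice 1 to 3. On the log2(FPKM + 1) scale this ratio had a mean of −1.26 in Gm31629-/- mice and 0.24 in WT mice (exact permutation p = 0.10, two-sided, adjusted p = 0.15 over 3 ratios), but with Nos1 at 6 fragments in the WT libraries together the WT value is set by the pseudocount. The ratio of S100b to Elavl4, glia to neurons, was 0.607, 0.957 and 1.90 in Gm31629-/- mice, and on the log2(FPKM + 1) scale the groups differed by −0.10 (exact permutation p = 0.70, adjusted p = 0.70). Elavl4 was listed at 0 in all WT mice and S100b was at 0 to 0.0717 FPKM there. The WT value is thus set by the pseudocount, and the test cannot compare glia with neurons between genotypes. The ratio of Th to Elavl4 differed by −1.46 on that scale (exact permutation p = 0.10, adjusted p = 0.15), with the same limit. The smallest p that 3 mice against 3 allow is 0.10. Other pairs in the Gm31629-/- mice had Vip at 6.06, 9.01 and 6.36 times Nos1, Gfap at 3.56, 7.19 and 4.79 times S100b, and Tac1 at 0.605, 0.426 and 1.62 times Vip. Only the last of these pairs changed its order between mice, with Tac1 above Vip in mouse 3.

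Other genes of the enteric nervous system were read from 4 further lists. Of 17 further neuronal genes, 15 passed the filter, 14 were called higher and 1 was called lower. The synuclein gene Sncg and the granin gene Scg2 had the largest rises on the log2(FPKM + 1) scale, 4.37 and 3.73. Their ratios of means were 128 and 102, and other genes had larger ratios, such as Snhg11 at 363. L1cam, the gene of an adhesion molecule known from axons, went the other way, with 4.11, 6.18 and 2.13 FPKM in Gm31629-/- mice and 20.8, 25.5 and 26.9 FPKM in WT mice (log2 fold change −2.38 ± 0.30 SE, limma adjusted p = 0.00131). The neuronal members summed to only 1.27 to 1.87 FPKM in the WT mice, and which cells held the L1cam RNA was not tested. Of 14 further synaptic genes, 11 passed and 9 were called higher, with Syt4 and Cplx1 rising by 1.91 and 1.86. Of 13 further glial genes, 9 passed and 5 were called higher, led by Ngfr, the low-affinity neurotrophin receptor gene, and the glial sodium channel gene Scn7a, which rose by 2.70 and 2.0. Of the 4 that were not called, Mbp, Erbb3 and Pmp22 were well expressed in WT mice. Which cells held their RNA was not tested. Col28a1, the other one, had 1.33, 1.26 and 0.344 FPKM in Gm31629-/- mice and 0.165, 0.0793 and 0.0651 FPKM in WT mice (log2 fold change 0.80 ± 0.23 SE, limma adjusted p = 0.0296). The myelin gene Mbp had 6.80, 5.17 and 5.82 FPKM in Gm31629-/- mice and 8.54, 11.3 and 11.0 FPKM in WT mice (log2 fold change −0.70 ± 0.17 SE, limma adjusted p = 0.0156), short of the fold-change threshold. The neuregulin receptor gene Erbb3 had 73.9, 37.2 and 64.9 FPKM against 74.4, 114.6 and 93.1 FPKM (log2 fold change −0.71 ± 0.28 SE, limma adjusted p = 0.0811). In both genes every Gm31629-/- value lay below every WT value, opposite to the 5 called genes, while the groups overlapped for Pmp22, at means of 163 and 156 FPKM. Of 16 further neurotrophic genes, 11 passed and 4 were called higher, with Ednrb, the endothelin receptor gene of migrating neural crest cells, and the coreceptor gene Gfra4 rising by 2.87 and 1.89. The other 7 were not called. Every Gm31629-/- value lay above every WT value in 11 of the 16 and below in 2, Ntrk2 and Ece1. Ntrk2 had 0.186, 0.250 and 0.124 FPKM against 0.768, 1.19 and 1.21 FPKM (log2 fold change −0.79, limma adjusted p = 0.00749). Ece1 had a log2 fold change of −0.53 (limma adjusted p = 0.0361).

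Markers of other layers of the gut wall moved with these genes. Of 12 smooth muscle markers, 11 passed the filter and 10 were called higher, and their sum was 25.7 to 45.8 FPKM in WT mice and 1323 to 2050 FPKM in Gm31629-/- mice. All 8 endothelial markers were called higher, with sums of 2.25 to 6.37 and 52.5 to 89.6 FPKM. Of 15 epithelial markers, 6 were called lower and 0 higher, with sums of 17623 to 19386 FPKM in WT mice and 9034 to 11876 FPKM in Gm31629-/- mice. None of the markers of these 3 lists was at 0 in all WT mice. In the WT mice the smooth muscle myosin gene Myh11 was at 0.228 to 1.31 FPKM. Other smooth muscle markers were higher there, such as Mylk at 11.4 to 12.5 FPKM and Acta2 at 5.01 to 14.2 FPKM. How much of the muscle layer each library held, and the part of these lists in the result, were not tested.

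The other lists moved less evenly. Of 6 markers of the pacemaker cells of Cajal, 5 passed and 3 were called higher, while the marker genes Kit and Ano1 had log2 fold changes of 0.02 and −0.02. The 6 markers summed to 13.8 to 14.8 FPKM in WT mice and 28.4 to 44.3 FPKM in Gm31629-/- mice. Kit was at 4.69 to 5.45 FPKM and Ano1 at 6.19 to 6.83 FPKM in WT mice, where Myh11 was at 0.228 to 1.31 FPKM. Which cells held the Kit and Ano1 RNA was not tested. Of 12 enteroendocrine markers, 11 passed, 4 were called higher and 2 lower, and the pan-endocrine genes Chga and Chgb had log2 fold changes of 0.12 and −0.13. Their sums were 297 to 379 FPKM in WT mice and 1121 to 2649 FPKM in Gm31629-/- mice. Of 8 adipocyte markers, 7 passed and 6 were called higher, with sums of 13.6 to 57.7 and 149 to 525 FPKM. Of 4 mesothelial markers, 3 passed and 2 were called higher, and of 4 skeletal muscle markers with a row, 3 passed and 1 was. The part of these lists in the result was not tested either.

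The order of the Gm31629-/- mice was not the same across these lists. Neuronal members summed to 7.67%, 14.1% and 4.21% of the smooth muscle sum in mice 1 to 3. Smooth muscle markers were highest in mouse 1 for 11 of 12 genes, and endothelial markers were lowest in mouse 1 for 7 of 8. Mesothelial markers had sums of 21.8, 40.6 and 3.43 FPKM in mice 1 to 3. Enteroendocrine sums were 1338, 2649 and 1121 FPKM, and adipocyte sums were 217, 525 and 149 FPKM. In these lists, as for the neuronal members, the sum was highest in mouse 2 and lowest in mouse 3.

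**Figure D4:**
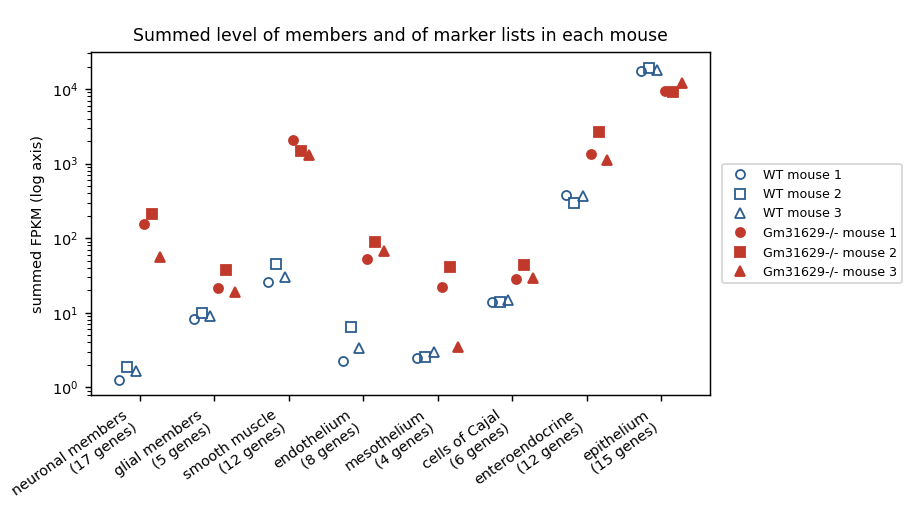
Summed FPKM, on a log axis, of the 17 neuronal and 5 glial members and of 6 marker lists in each mouse. Neuronal, smooth muscle and endothelial sums are higher in all Gm31629-/- mice than in any WT mouse, and epithelial sums are lower.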

How the data were processed

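Distal colon of DSS-treated mice was sequenced with 3 libraries per genotype. The authors deposited FPKM values for 27546 genes by Ensembl identifier, with no further scaling between libraries, and the submitters' processing notes name HISAT2 2.1.0, HTSeq 0.6.0 and GRCm38. The annotation is not given in the sources used here. The libraries were made with a TruSeq kit that does not mark strand. Samples were grouped by the genotype label. Symbols, positions and exon lengths came from GENCODE M21 (GRCm38), which matched 27488 identifiers. With these lengths, 96.3% to 97.2% of values up to 20 fragments per library lay within 0.1 of a whole fragment. Among the members this held for 79 of 92 such values, and fragment numbers are not given for the 8 genes where it failed. A value of 0 allows up to 3 fragments. That limit covers counting error only.

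Moderated tests from limma 3.58.1 (R 4.3.3, intensity trend on) were run on log2(FPKM + 1) over 14657 genes with a mean of at least 0.5 FPKM, with Benjamini-Hochberg adjustment. The study's own comparison used DEGseq, which needs counts and was not repeated. The log2 fold changes printed for single genes are of FPKM + 1, and this pseudocount understates the change of low genes. Whether the libraries differ in more than the animal is not stated, so p-values measure the spread between these libraries. In simulated tables of 14657 genes, the test recovered 130 of 200 genes altered by 1.5 (log2) beside 8 wrong calls, and 169 of 200 altered by 2.5 beside 7. The members and lists were chosen with earlier results of these data known. Members named with values were the 3 called members with the largest change in each role group and those that passed the filter without a call. Others were added for their role after their values were seen, and from each further list the 2 called genes with the largest change and any called lower were named. Some other genes of those lists were also named after their values were seen. The settings varied were the pseudocount (0.1), the filter (none, or a mean of at least 5 FPKM), a common sum per library (TPM scale), the median ratio, no trend, the replicate number as a block, each library left out, voom on recovered fragments, and adjusted p alone.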

Additional observations from a re-analysis of the deposited data

How the results depend on the processing

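The 33 members called higher became 13 when only genes with a mean of at least 5 FPKM were tested, since 16 of the 45 genes then remained, and lay between 28 and 34 with each library left out in turn. Of the alternatives without a library left out, the others gave 31 to 35, and 0 members were called lower in any. Over all genes, 2704 were called higher and 680 lower, against 956 higher with a mean of at least 5 FPKM, 1217 lower with the median ratio, and 4238 higher and 2138 lower by adjusted p alone. With each library left out, the counts were 2295 to 2913 higher and 515 to 766 lower. With each library left out, the log2 ratio differences lay between −1.85 and −1.06 for Chat to Nos1 and between −1.87 and −1.21 for Th to Elavl4. For S100b to Elavl4 they lay between −0.34 and 0.14, and the difference turned positive without Gm31629-/- mouse 1. These ranges do not cover a change of pseudocount, which sets the WT ratios. Of 513 single-member results under alternatives, 494 kept their direction and call, 13 lost the call, 6 gained it and 0 changed sign, and 31 of 39 members kept their call under every alternative run for them. Same-numbered libraries did not deviate together (correlations 0.04, −0.11 and 0.01). No pairing by number was thus detected, though 3 libraries per group cannot exclude it. With the replicate number as a block, 33 members, and 2709 genes higher and 648 lower over all genes, were called. Depth limits Elavl2, Th and Calb1, with 29, 13 and 9 fragments in the Gm31629-/- libraries together.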
